A study of Rattus norvegicus with 9 samples.

Results

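The genes described here carry calcium across the plasma membrane or release it from stores inside the cell. They are Cacna1a, Cacna1b, Cacna1c, Cacna1d and Cacna1g, which encode pore-forming subunits of voltage-gated calcium channels, Cacna2d1, which encodes an accessory subunit of those channels, Ryr2, Ryr3 and Itpr1, which encode release channels of the endoplasmic reticulum, and Atp2b1, which encodes a calcium pump of the plasma membrane. Members were all probe sets that the platform annotation gave exactly 1 of these 10 symbols. They are 10 of 14217 genes that a probe set named alone. There were 21 such probe sets among 31099 on the array, and 18 of them were bright enough to be tested among 21729. Atp2b1 neither admits nor releases calcium but removes it from the cell, so the heading of channels and release does not cover it.

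RNA came from the dissected cortex of Hsd:Sprague Dawley SD rat pups on postnatal day 4, with 1 pup from each F2b litter and 1 array per pup. The parental generation received 4-methylimidazole (4-MeI), a small ring compound that forms when food browns, in the diet from before mating, and exposure continued across pregnancies and generations. The groups were 3 control pups at 0 ppm, 3 pups at 750 ppm and 3 pups at 2500 ppm. The series title names maternal seizures, but no label ties a pup to a dam with seizures, and none gives the sex of a pup.

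In neurons, voltage-gated channels open on depolarisation and let calcium in. Cav2 channels, such as those built on Cacna1a (P/Q type) and Cacna1b (N type), serve transmitter release, while the L-type channels of Cacna1c and Cacna1d couple activity to transcription and the low-voltage T-type channel of Cacna1g supports burst firing. Ryanodine receptors amplify a calcium signal by releasing more calcium from the endoplasmic reticulum, and the inositol trisphosphate receptor of Itpr1 does so downstream of receptors that activate phospholipase C. The plasma membrane pumps then return calcium to the outside.

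The promoters of Ryr2, Ryr3 (the first of its entries) and Atp2b1 are shown because these were the genes with an unadjusted p under 0.05 in 750 ppm pups against controls. Each line is the 250 bases before the annotated start, 5′ to 3′ on the gene's strand, from RefSeq on assembly GRCr8. Capitals mark GC boxes, the letters GGGCGG on either strand, with overlapping matches joined.
Ryr2, chr17:63081277-63081526, plus strand: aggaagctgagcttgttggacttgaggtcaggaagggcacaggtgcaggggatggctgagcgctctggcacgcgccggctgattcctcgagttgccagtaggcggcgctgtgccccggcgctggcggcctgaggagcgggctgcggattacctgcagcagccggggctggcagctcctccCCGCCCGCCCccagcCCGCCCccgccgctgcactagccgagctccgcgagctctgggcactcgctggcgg
Ryr3, chr3:120433466-120433715, minus strand: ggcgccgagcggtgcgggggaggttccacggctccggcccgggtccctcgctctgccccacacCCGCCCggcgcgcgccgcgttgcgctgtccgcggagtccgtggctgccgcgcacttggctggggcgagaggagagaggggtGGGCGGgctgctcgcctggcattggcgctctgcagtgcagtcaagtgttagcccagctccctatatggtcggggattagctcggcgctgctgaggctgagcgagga
Atp2b1, chr7:35622211-35622460, plus strand: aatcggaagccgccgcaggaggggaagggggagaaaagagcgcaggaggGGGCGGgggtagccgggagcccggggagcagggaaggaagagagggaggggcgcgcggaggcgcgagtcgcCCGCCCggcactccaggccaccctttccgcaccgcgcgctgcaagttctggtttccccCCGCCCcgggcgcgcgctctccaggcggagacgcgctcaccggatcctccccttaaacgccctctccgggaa
Ryr2 held 3 matches, Ryr3 held 2 and Atp2b1 held 3, and their GC contents were 72.0%, 72.4% and 72.8% against a median of 51.2% over 33469 promoter windows of this length. The second entry of Ryr3, not shown, held 1 match and had a GC content of 47.2%, below that median. The GC box was in 30.5% of all those windows and in 10 of 12 windows of the member genes. Promoter windows were matched for 9 of the 10 genes, not for Cacna1g, and Ryr3 and Cacna2d1 have more than 1 annotated start, with overlapping windows in Cacna2d1. Itpr1 and Cacna1c held no GC box, and Cacna1d held 9 matches. Of the other motifs searched on both strands, the cAMP response element TGACGTCA was in 0 of the 12 windows and in 1.59% of all. Its shorter core TGACG, which is also part of the full element, was in 3 of 12 and in 18.2%. The E-box CANNTG was in 6 of 12 and in 65.5%, the NRF1 motif in 0 of 12 and in 3.75%, and the TATA motif TATAAA in 0 of 12 and in 12.9%. A match is a description of the letters and no evidence of binding.

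The arrays carried the markers of cortex. Of 9 cortical excitatory neuron genes with a probe set, 8 passed the filter on low values, with Neurod6 at a mean log2 intensity of 13.02, and Tbr1 did not. Marker means of several other tissues and cell types differed between groups, while the pan-neuronal and astrocyte means overlapped across all groups. Relative to the mean over all 9 arrays, the mean of 13 striatal genes (of 14 with a probe set, Six3 being below the filter) lay between 0.30 and 0.69 in controls, between -0.94 and 0.64 at 750 ppm and between -0.98 and -0.066 at 2500 ppm. The mean of 12 meningeal genes lay between -1.26 and -0.17 in controls, 0.35 and 0.63 at 750 ppm, and -0.011 and 0.43 at 2500 ppm. For 6 of 8 choroid plexus and ependymal genes, with Kl and Otx2 below the filter, the ranges were -0.85 to -0.68, -0.57 to -0.33 and 0.32 to 1.76. All 6 had their highest group mean at 2500 ppm. At 750 ppm only Ttr (9.07 against 7.74) and Sostdc1 (6.72 against 6.07) had a group mean above control. Those of Folr1, Kcne2, Foxj1 and Aqp1 were below control. For 8 endothelial and pericyte genes the ranges were -0.40 to -0.068, 0.066 to 0.18 and 0.013 to 0.16, and for 7 microglial genes -0.21 to -0.090, -0.065 to 0.26 and 0.0061 to 0.051. For 2 of 3 blood cell genes, with Ptprc below the filter, they were -0.45 to -0.30, -0.11 to 0.33 and 0.15 to 0.30. Of 7 smooth and striated muscle genes, Cnn1, Myh6 and Myl2 were below the filter, and the other 4 had ranges of -0.53 to -0.040, 0.096 to 0.21 and -0.051 to 0.25. For 6 interneuron genes the ranges were 0.081 to 0.38, -0.57 to 0.42 and -0.40 to -0.18. Among them Npy had a higher group mean at 2500 ppm (12.47) than in control (12.17), and the others had a lower one. At 750 ppm, replicate 3 alone was low in the striatal and interneuron means. The 8 pan-neuronal genes gave -0.060 to 0.031, -0.11 to 0.059 and -0.023 to 0.16. Among 7 astrocyte and radial glial genes, ranges were -0.18 to 0.0058, -0.11 to 0.14 and -0.081 to 0.11. Oligodendrocyte lineage genes (5 of 6, Olig2 being below the filter) gave -0.10 to 0.091, -0.18 to -0.053 and 0.025 to 0.17. In dissected tissue of this kind, fewer cells of a type and less RNA per cell cannot be told apart.

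**Figure D1:**
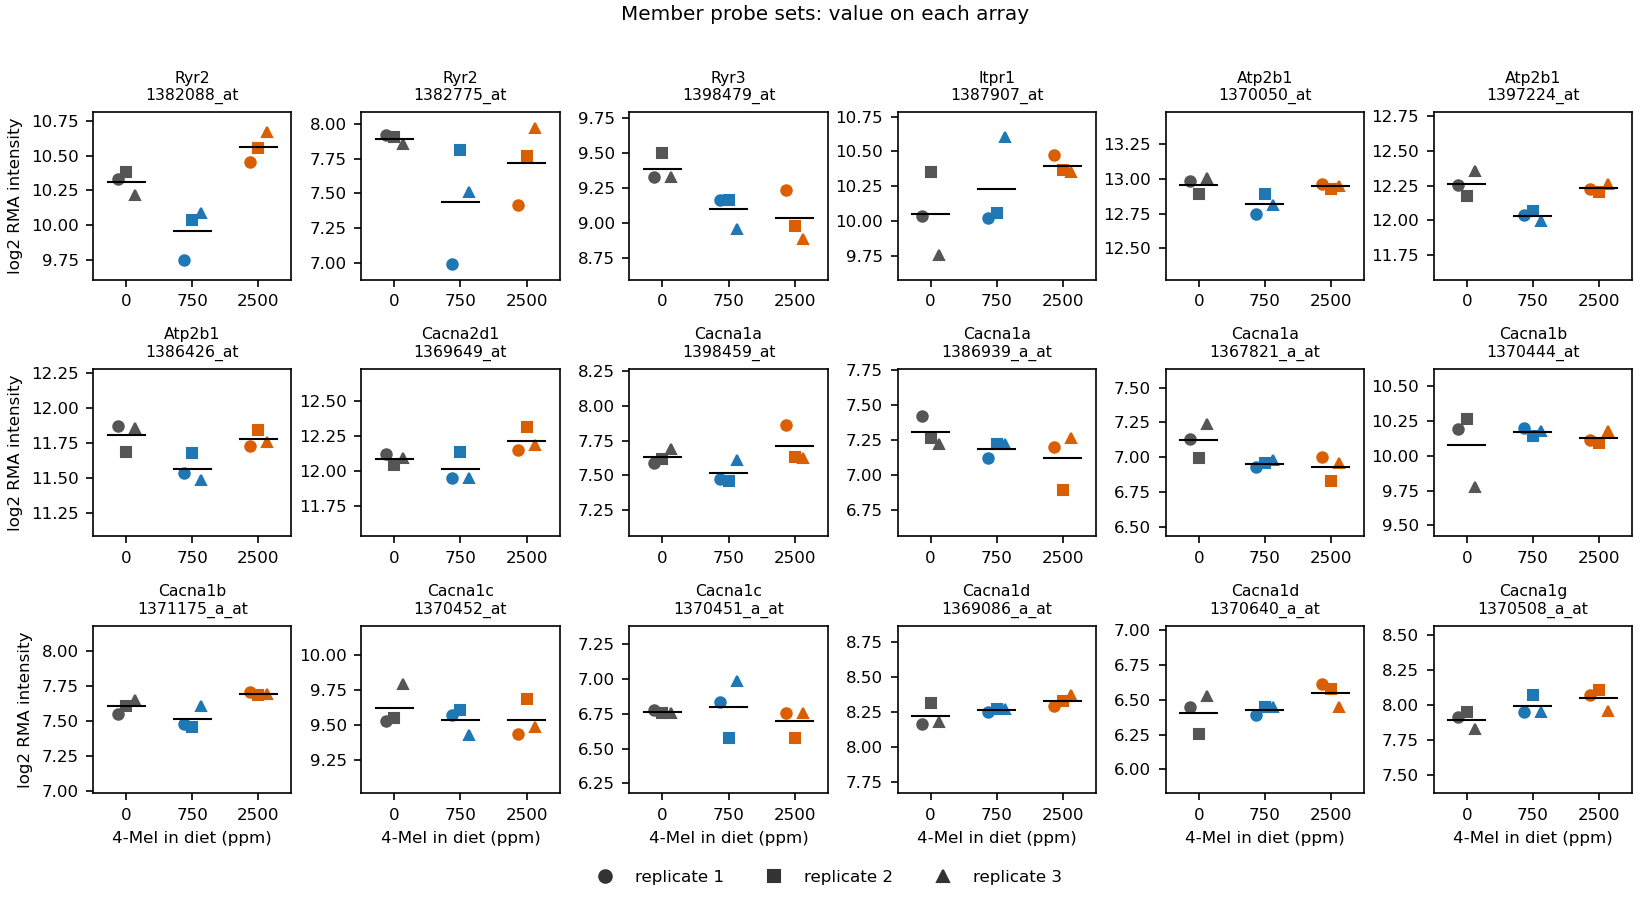
Log2 RMA intensity (y axis, each panel spanning 1.2 log2 units) of the 18 tested member probe sets on each of the 9 arrays, by 4-MeI in the diet in ppm (x axis). Symbols are replicates, bars are group means, and the means of Ryr2 on 1382088_at and of all 3 Atp2b1 probe sets are lowest at 750 ppm.

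Among the members, the largest difference between diets lay in Ryr2, the ryanodine receptor that is the main form of heart and brain. On probe set 1382088_at its log2 intensity was 10.33, 10.38 and 10.22 in the controls. It was 9.75, 10.04 and 10.09 at 750 ppm, and 10.46, 10.56 and 10.67 at 2500 ppm. No array of one group overlapped with another group, and the order was 750 ppm, then control, then 2500 ppm. Ryr2 was 0.60 higher at 2500 ppm than at 750 ppm on the log2 scale (SE 0.099, 95% interval 0.38 to 0.83, n = 3 against 3, 1.52-fold, limma adjusted p = 0.0493). It was the 1 call among the 18 tested probe sets at an adjusted p under 0.05 in that comparison, against 0.322% of all probe sets, and ranked 70 of 21729 by p. Against control, the Ryr2 difference was -0.35 at 750 ppm (SE 0.099, limma adjusted p = 0.265, unadjusted p = 0.00577) and 0.25 at 2500 ppm (SE 0.099, limma adjusted p = 0.258, unadjusted p = 0.0313). These comparisons share arrays, so the values at 750 ppm enter more than 1 of them.

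The second probe set of Ryr2, 1382775_at, varied more within groups. It read 7.92, 7.90 and 7.85 in controls, 6.99, 7.81 and 7.51 at 750 ppm, and 7.42, 7.77 and 7.97 at 2500 ppm. All 750 ppm arrays lay below all controls here too, with a difference of -0.46 (SE 0.20, limma adjusted p = 0.482), but the 2500 ppm arrays spread across both groups and stood 0.28 above 750 ppm (SE 0.20, 95% interval -0.16 to 0.72, limma adjusted p = 0.592). On both probe sets the lowest array was 750 ppm replicate 1. On 1382088_at the difference between the 2 doses was 0.50 without that array, with a limma adjusted p of 0.0970. On 1382775_at it was 0.057 without that array, and the difference of 750 ppm from control was -0.23.

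The adjusted p of Ryr2 on 1382088_at stood close to the threshold. The call held in 7 of 19 alternatives, over which the adjusted p ran from 0.0115 to 0.169 and the difference from 0.50 to 0.67. These 7 include leaving out control replicate 3 and 750 ppm replicate 3 together (limma adjusted p = 0.0120), which was added after the data were seen. The call was lost on leaving out any single array other than 750 ppm replicate 3 (adjusted p from 0.0559 to 0.169). It was also lost with no filter (0.0531), with median-centring (0.0518), with the replicate number as a block (0.0701) and in a fit of the 2 dose groups alone (0.120). The mean of 8 cortical excitatory neuron genes, relative to all arrays, was -0.32, -0.13 and 0.024 at 750 ppm against 0.071, 0.20 and 0.12 at 2500 ppm and 0.040, -0.028 and 0.034 in controls. This cortical mean was lowest on the same array as Ryr2. The oligodendrocyte lineage mean also had no overlap between the doses (-0.18 to -0.053 at 750 ppm, 0.025 to 0.17 at 2500 ppm). Nor did the choroid plexus and ependymal mean (-0.57 to -0.33 and 0.32 to 1.76), while the other marker means overlapped between the doses. The part of these means in the Ryr2 result was not tested.

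Ryr3, the ryanodine receptor form with a more restricted expression in brain, lay below control at both doses. Its only probe set read 9.33, 9.50 and 9.33 in controls, 9.16, 9.16 and 8.96 at 750 ppm, and 9.24, 8.98 and 8.88 at 2500 ppm. All 6 exposed arrays were below the 3 controls, and the dose groups overlapped with each other. The difference from control was -0.29 at 750 ppm (SE 0.10, limma adjusted p = 0.388, unadjusted p = 0.0192) and -0.35 at 2500 ppm (SE 0.10, 95% interval -0.58 to -0.12, limma adjusted p = 0.144, unadjusted p = 0.00711). Neither passed the adjusted threshold, and 2500 ppm differed from 750 ppm by -0.062 (95% interval -0.29 to 0.17). With array weights, which give noisy arrays less say, the 2500 ppm difference was -0.34 with a limma adjusted p of 0.0348 (0.0348 to 0.363 over all alternatives). That was the only 1 of 19 alternatives with an adjusted p under 0.05. The share of all probe sets called with array weights was not counted, so this value has no background beside it. The meningeal, endothelial and pericyte, microglial, blood cell and choroid plexus marker means were lowest in the same 3 control arrays in which Ryr3 was highest. Of the choroid plexus genes, only Ttr and Sostdc1 had a lower group mean in controls than at 750 ppm. The part of these marker means in the Ryr3 result was not tested. Of the deposited values of Ryr3, controls 1 and 3 were equal to the last digit, as were 750 ppm replicates 1 and 2. At least 1 such pair of equal arrays occurred in 38.9% of all 31042 probe sets without controls and in 9 of the 21 member probe sets.

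Itpr1, the inositol trisphosphate receptor, varied widely between pups of one group. It read 10.04, 10.35 and 9.76 in controls, 10.02, 10.06 and 10.60 at 750 ppm, and 10.47, 10.37 and 10.36 at 2500 ppm. The 2500 ppm arrays were all above the controls, by a small margin over control replicate 2, and the highest array of all was 750 ppm replicate 3. The difference at 2500 ppm was 0.35 (SE 0.18, 95% interval -0.048 to 0.75, limma adjusted p = 0.373), and at 750 ppm it was 0.18 (SE 0.18, limma adjusted p = 0.739). Without 750 ppm replicate 3 the latter was -0.011. The 2500 ppm difference was 0.20 without control replicate 3 and 0.50 without control replicate 2. The array of 750 ppm replicate 3 had the lowest interneuron marker mean of the 9 arrays, -0.57, and a striatal mean of -0.94. The part of these marker means in the result was not tested.

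**Figure D2:**
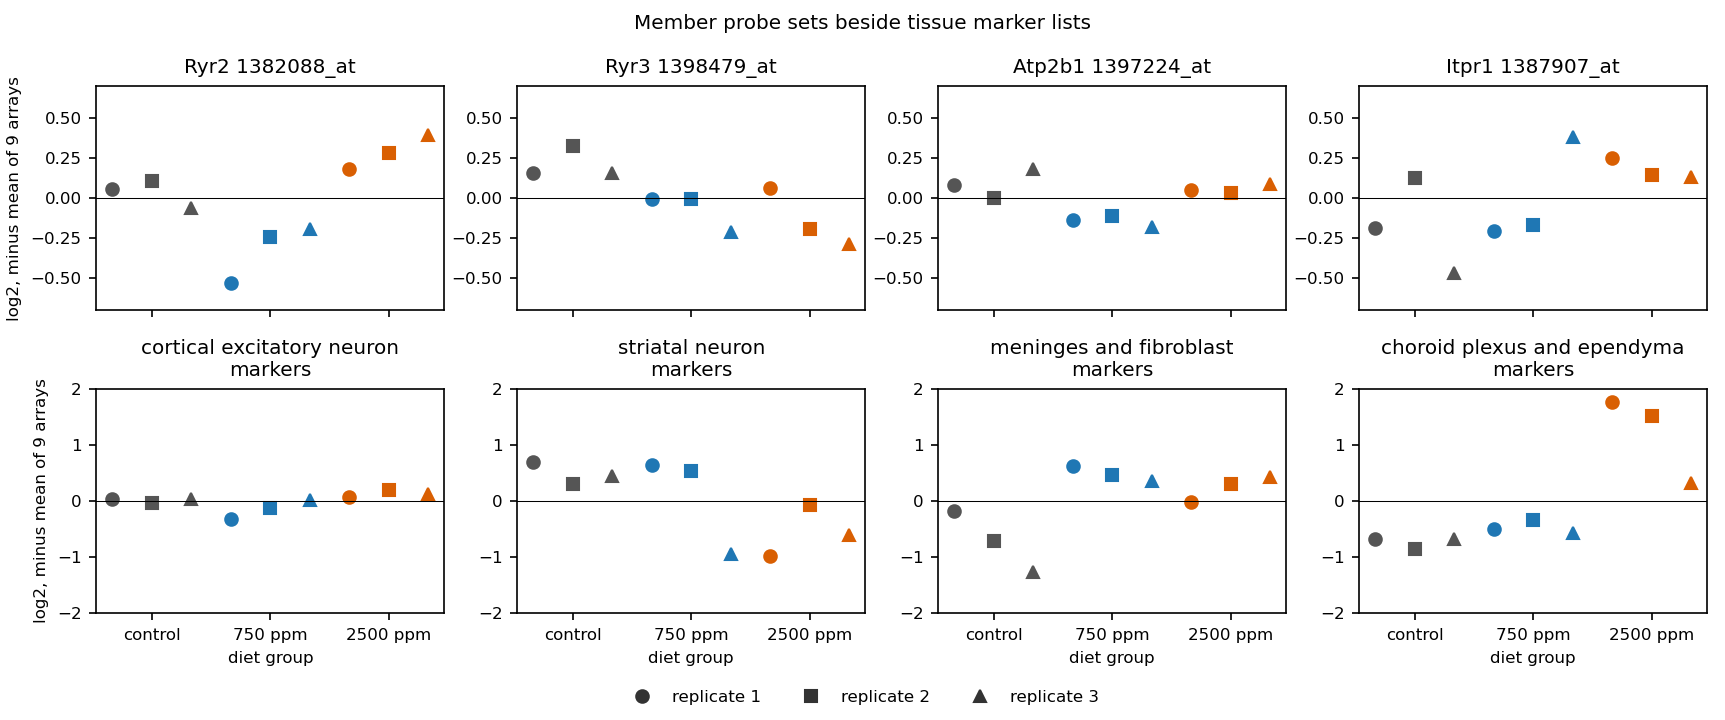
Top, log2 intensity of 4 member probe sets minus their mean over the 9 arrays; bottom, the mean of marker lists treated in the same way (y axes, log2), by diet group (x axis). Symbols are replicates; Ryr2 and the cortical excitatory list share their lowest array, 750 ppm replicate 1, while the striatal list is low in 750 ppm replicate 3.

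Atp2b1 encodes PMCA1, the most widely expressed of the plasma membrane calcium pumps, and its 3 probe sets followed each other. On 1397224_at the controls read 12.26, 12.18 and 12.36, the 750 ppm arrays 12.04, 12.07 and 11.99, and the 2500 ppm arrays 12.23, 12.21 and 12.26. The 750 ppm arrays lay below every other array, and the 2500 ppm arrays lay within the range of the controls. The difference from control at 750 ppm was -0.23 (SE 0.062, limma adjusted p = 0.250, unadjusted p = 0.00437), a 0.852-fold level. The others gave -0.24 on 1386426_at (unadjusted p = 0.0110, limma) and -0.14 on 1370050_at (unadjusted p = 0.0417, limma), with no overlap with controls on either. The margins were small, since the ranges met at 12.89 on 1370050_at. On 1386426_at the highest 750 ppm array was at 11.68 and the lowest control at 11.69. None of the 3 probe sets had an adjusted p under 0.05. At 2500 ppm the 3 probe sets differed from control by -0.014 to -0.031, and their 95% intervals lay between -0.20 and 0.14. Against 750 ppm, 2500 ppm was higher by 0.20 on 1397224_at (unadjusted p = 0.00971, limma adjusted p = 0.251), by 0.21 on 1386426_at (limma adjusted p = 0.313) and by 0.13 on 1370050_at (limma adjusted p = 0.422). Over the 9 arrays the probe sets of Atp2b1 correlated with each other at r of 0.896 to 0.903, which describes probe sets that share a gene and the same libraries.

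The accessory subunit gene Cacna2d1, whose product brings channels to the surface and binds gabapentin, had 1 probe set. It read 12.12, 12.05 and 12.09 in controls, 11.95, 12.14 and 11.95 at 750 ppm, and 12.15, 12.31 and 12.18 at 2500 ppm. The 2500 ppm arrays were above all others, but the lowest, at 12.15, was close to 750 ppm replicate 2 at 12.14. Against 750 ppm the difference was 0.20 (SE 0.073, unadjusted p = 0.0211, limma adjusted p = 0.313), and against control it was 0.13 (SE 0.073, limma adjusted p = 0.427).

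The pore-forming subunit genes showed small differences, and none passed the adjusted threshold in any of the 3 comparisons. Cacna1a had 3 tested probe sets with differing directions. On 1367821_a_at the group means were 7.12 (SD 0.12) in controls, 6.96 (SD 0.023) at 750 ppm and 6.93 (SD 0.089) at 2500 ppm. All 750 ppm arrays lay below all controls, while the highest 2500 ppm array met the lowest control. The difference from control at 2500 ppm was -0.19 there (SE 0.075, unadjusted p = 0.0295, limma adjusted p = 0.251), and 1386939_a_at gave -0.18 (SE 0.10, limma adjusted p = 0.409). Probe set 1398459_at gave 0.078 at 2500 ppm (SE 0.079, limma adjusted p = 0.658), with 2500 ppm above 750 ppm by 0.19 (unadjusted p = 0.0394, limma adjusted p = 0.372).

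Cacna1b also split by probe set. On 1371175_a_at it read 7.55, 7.61 and 7.65 in controls, 7.47, 7.46 and 7.61 at 750 ppm, and 7.71, 7.69 and 7.69 at 2500 ppm, so that the 2500 ppm arrays were highest. They stood 0.18 above 750 ppm (SE 0.061, unadjusted p = 0.0143, limma adjusted p = 0.279). On 1370444_at, control replicate 3 was at 9.78 and the other 8 arrays lay between 10.09 and 10.27, and the same difference was -0.046 (95% interval -0.30 to 0.21). Without control replicate 3 the difference of 2500 ppm from control on that probe set turned from 0.048 to -0.10.

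None of the L-type or T-type probe sets reached an unadjusted p under 0.05. Cacna1c on 1370452_at had group means of 9.62 (SD 0.15), 9.53 (SD 0.093) and 9.53 (SD 0.13) in controls, 750 ppm and 2500 ppm pups, with overlapping groups and limma adjusted p between 0.673 and 0.995. Its other probe set had a 2500 ppm difference of -0.067 from control (95% interval -0.29 to 0.16). Cacna1d on 1369086_a_at rested at 8.22 (SD 0.086), 8.26 (SD 0.0094) and 8.33 (SD 0.041), and 2500 ppm was 0.11 above control (SE 0.060, limma adjusted p = 0.408), with 0.14 on 1370640_a_at (limma adjusted p = 0.432). Cacna1g read 7.91, 7.95 and 7.82 in controls, 7.95, 8.07 and 7.95 at 750 ppm, and 8.07, 8.11 and 7.96 at 2500 ppm. All 2500 ppm arrays were above all controls, by 0.15 on average (SE 0.068, unadjusted p = 0.0504, limma adjusted p = 0.313).

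**Figure D3:**
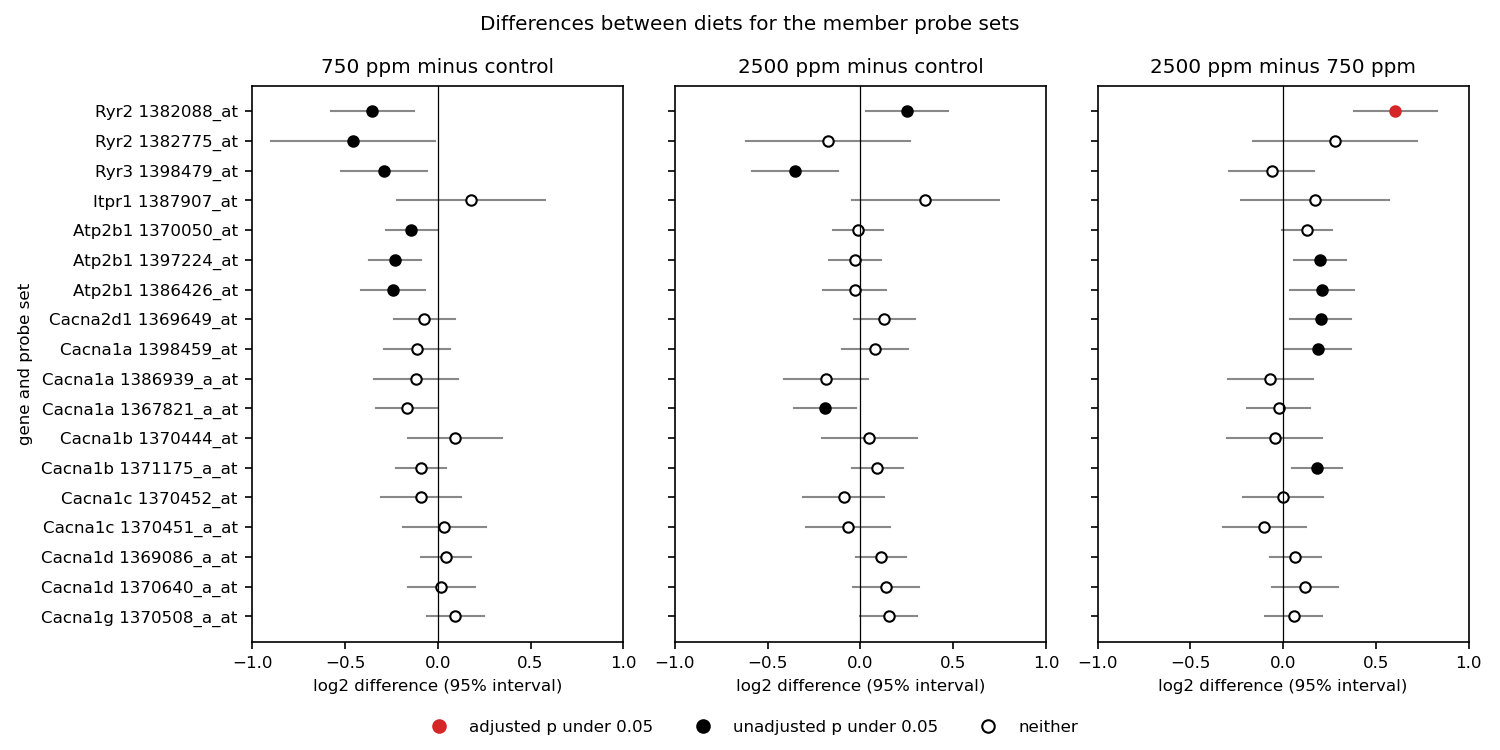
Log2 difference (x axis) with its 95% interval for each tested member probe set (y axis) in the 3 comparisons, from the limma fit of all 9 arrays. Red marks the 1 adjusted p under 0.05, Ryr2 on 1382088_at at 2500 ppm against 750 ppm, black an unadjusted p under 0.05, and open circles neither.

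The counts over the 18 tested probe sets are read against all 21729 tested, and probe sets of 1 gene are not independent. At 750 ppm against control, 0 members had an adjusted p under 0.05, against 0.0092% of all probe sets. By the unadjusted p under 0.05 in limma there were 6, against 10.1% of all probe sets. All 6 were lower, from Atp2b1, Ryr2 and Ryr3, where 4.37% of all probe sets were lower and 5.77% higher by that rule. Lower with no overlap of groups were 7 of the 18, against 6.58% of all, and 0 were higher with no overlap, against 7.61%. The median log2 difference of the members was -0.10, against 0.0023 over all probe sets tested.

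At 2500 ppm against control, 0 members passed the adjusted threshold, against 0.686% of all probe sets, and 3 had an unadjusted p under 0.05 in limma, against 16% (6.89% higher and 9.12% lower). Those 3 were Ryr3 and Cacna1a, lower, and Ryr2, higher, so the members' share was near the background. Groups did not overlap for 5 members that were higher, from Cacna1b, Cacna1g, Cacna2d1, Itpr1 and Ryr2, against 9.87% of all, and for Ryr3 among those lower, against 13.4%. The median was 0.017, against 0.0070 over all.

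At 2500 ppm against 750 ppm, 6 members had an unadjusted p under 0.05 in limma, against 12.6% of all probe sets. All 6 were higher, where 5.25% of all were higher and 7.33% lower by that rule. They were probe sets of Ryr2, Atp2b1, Cacna1a, Cacna1b and Cacna2d1. Higher with no overlap were 9 of 18, against 7.88% of all, and 0 were lower, against 9.52%. The median was 0.12, against -0.0063 over all. The genes were chosen with earlier results known, and this comparison shares the 750 ppm arrays with the first. In all 3 comparisons the 95% intervals of all 18 probe sets lay within a 2-fold difference in either direction, the widest reaching -0.90 on the log2 scale for Ryr2 on 1382775_at.

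The other genes of calcium handling were counted from 1 probe set per gene. Over all 21729 probe sets tested, 11337 were higher and 10392 lower at 2500 ppm than in control, with a median of 0.0070. Of 16 tested genes listed as channel subunits outside the members, 13 were lower at 2500 ppm than in control, with a median of -0.12. At 750 ppm 8 were higher and 8 lower, with a median of 0.0022. The list also held Nalcn and relatives of the gamma subunit, which are not all calcium channel subunits. Nalcn, Cacng2, Cacng3, Cacng4, Cacng5 and Cacng8 were among the 13, and Cacng7 was higher. The 1 of the 16 with an adjusted p under 0.05 at 2500 ppm, against 0.686% of all probe sets, was Cacng4. It is a relative of the channel gamma subunit that acts on AMPA receptors. It read 8.52, 8.49 and 8.54 in controls, 8.08, 8.26 and 8.21 at 750 ppm, and 8.22, 8.08 and 8.05 at 2500 ppm. All 6 exposed arrays lay below the controls, and Cacng4 fell by 0.40 at 2500 ppm (SE 0.070, limma adjusted p = 0.0437), with -0.33 at 750 ppm (limma adjusted p = 0.201). The call at 2500 ppm was lost without any single control or 2500 ppm array, with adjusted p from 0.0771 to 0.141, and held in 9 of 19 alternatives (0.00504 to 0.141). By the unadjusted p under 0.05 in limma, 1 of the 16 was higher and 2 were lower at 2500 ppm than in control. Of all probe sets 6.89% were higher and 9.12% lower by that rule, so the list was near the background. Besides Cacng4 these were Cacnb2, a cytoplasmic beta subunit, at -0.19 (unadjusted p = 0.0269, limma) and the retinal channel gene Cacna1f at 0.19 (unadjusted p = 0.0402, limma).

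Of 18 tested pumps, exchangers and genes of mitochondrial uptake, 15 were higher at 2500 ppm than in control, with a median of 0.099, and 0 passed the adjusted threshold. By the unadjusted p in limma, 3 were higher and 0 lower, against 6.89% and 9.12% of all probe sets. At 750 ppm against control 8 were higher and 10 lower, with a median of -0.019. Slc24a2, a potassium-dependent sodium-calcium exchanger of neurons, was 0.36 higher (SE 0.096, limma adjusted p = 0.122). Atp2a2, the SERCA2 pump that refills the endoplasmic reticulum, was 0.15 higher than control (limma adjusted p = 0.234) and 0.24 higher than 750 ppm (SE 0.057, limma adjusted p = 0.139). Of 17 tested release and store genes, 9 were higher and 8 lower at 2500 ppm than in control. By adjusted p 0 passed in any comparison, and by unadjusted p in limma 1 did at 750 ppm against control, 2 at 2500 ppm against control and 1 between the doses. Of all probe sets 10.1%, 16% and 12.6% did so in these comparisons, so the counts of the list were near or below the background. Tmem38b, a potassium channel of the endoplasmic reticulum that accompanies calcium release, was at -0.36 at 750 ppm and -0.37 at 2500 ppm (limma adjusted p = 0.386 and 0.203). Ryr1, the muscle form, had a mean of 6.20 and was below the filter.

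Of 25 tested sensors, buffers and kinases, 0 passed in any comparison, with a median of 0.0054 at 2500 ppm against control. At an unadjusted p under 0.05 in limma, 1 was higher and 4 lower there, against 6.89% and 9.12% of all probe sets. At 750 ppm against control 3 were higher and 1 lower, against 5.77% and 4.37%, and between the doses 3 were higher and 7 lower, against 5.25% and 7.33%. Camk4, a kinase that carries calcium signals to the nucleus, was at -0.43 against control (SE 0.098, limma adjusted p = 0.0872). Grm5, the glutamate receptor upstream of the Itpr1 channel, was at -0.46 (SE 0.13, limma adjusted p = 0.138). Homer2, a scaffold that links such receptors to store channels, was 0.45 higher at 750 ppm than in control (limma adjusted p = 0.250) and differed by -0.54 between 2500 and 750 ppm (limma adjusted p = 0.119). In the striatal marker mean all 2500 ppm arrays lay below all controls, and its part in these values was not tested.

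**Figure D4:**
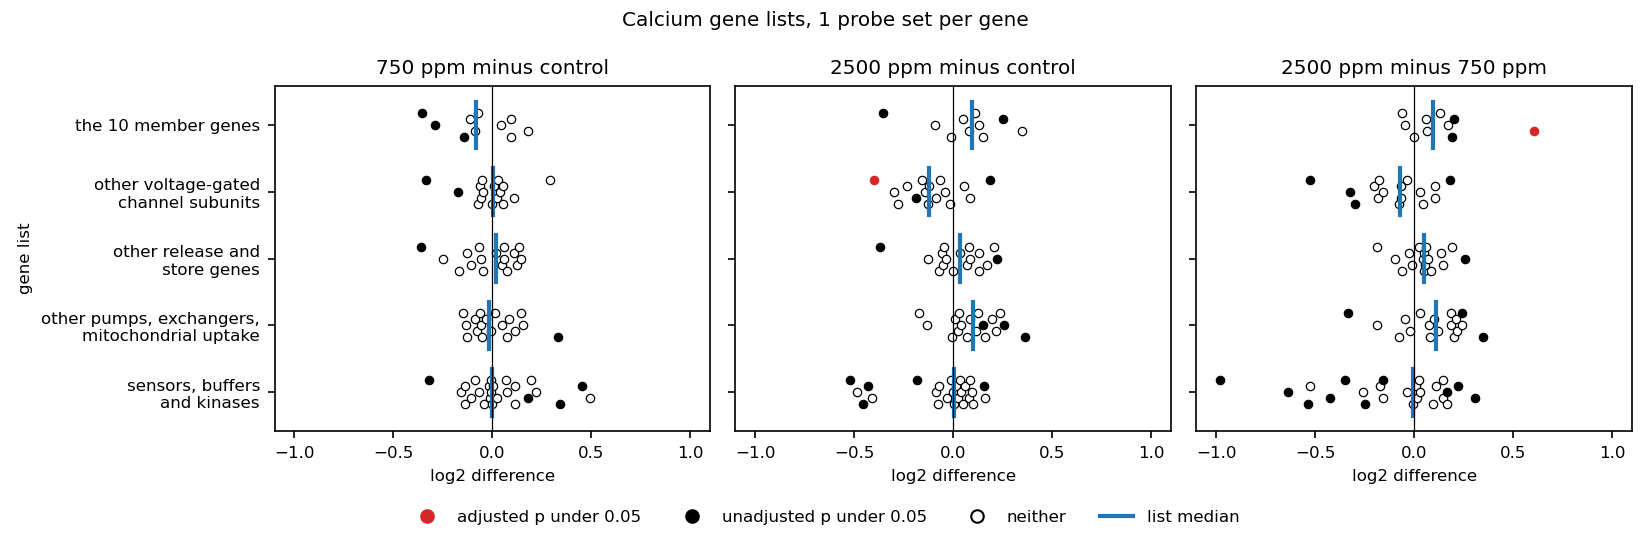
Log2 difference (x axis) of each tested gene of the calcium lists (y axis, 1 probe set per gene), with the list median as a blue bar. Red marks an adjusted p under 0.05, which Cacng4 reached at 2500 ppm against control and Ryr2 at 2500 ppm against 750 ppm.

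The genes whose values over the 9 arrays were most like those of 3 members were found among 11605 other genes, by Pearson's r, as a description of arrays that share the group differences. For Ryr2 on 1382088_at they were Clstn2 (r = 0.959), Kiaa1671 (r = 0.952), Fbln2 (r = 0.941), Arhgef26 (r = 0.929) and Dync1li1 (r = 0.926). For Ryr3 they were Tmem231 (r = 0.922), Odf2l (r = 0.913), Ccdc112 (r = 0.908), Dnajc24 (r = 0.905) and Psrc1 (r = 0.891). For Cacna1a on 1367821_a_at they were R3hcc1l (r = 0.982), Stk38l (r = 0.944), LOC102548459 (r = 0.922), Mgat2 (r = 0.920) and Cep76 (r = 0.915). No member of the calcium lists was among these 15.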

How the data were processed

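Cortex RNA of 9 pups was hybridised to Affymetrix rat expression arrays, which read the 3' part of transcripts. The deposited values are log2 intensities that the authors made with affy and RMA, per the submitters' processing notes; versions are not given in the sources used here. RMA subtracts background, gives every array the same distribution and combines each set's probes, so a change in total RNA is hidden and differences near background are compressed. All 21 member probe sets kept their symbol through the Entrez identifier in GRCr8.

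After removal of 57 control probe sets and the 30% with the lowest mean (under 6.35), limma 3.58.1 in R 4.3.3 fitted 1 mean per group over all 9 arrays, with two-sided tests and Benjamini-Hochberg adjustment over 21729 probe sets at 0.05. The fit was tested on simulated data. An exact permutation test of 3 against 3 cannot go below a p of 0.1. Replicates are pups of different litters, and their number limits the precision.

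Every member probe set was described. Other calcium genes were counted by list, 1 probe set each (the one with the highest mean), and up to 3 per list and comparison could be named by their p. Likeness was given for the 3 members with the smallest p at 2500 ppm against control. The members and lists were chosen with earlier results of these data known. Alternatives changed the filter, centring, normalization, variance model, array weights, arrays fitted, probe set choice or the use of replicate numbers. Leaving out control replicate 3 and 750 ppm replicate 3 together was added after the data were seen.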

Additional observations from a re-analysis of the deposited data

How the results depend on the processing

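Over 19 alternatives, the count of member probe sets with an adjusted p under 0.05 at 2500 ppm against 750 ppm, 1 in the report, was 0 with no filter, with median-centring, with the replicate block and with only the groups compared, 0 to 1 on leaving out single arrays, and 2 on leaving out the arrays numbered 3 of control and 750 ppm together, an alternative chosen after seeing the data that added Cacna1b. With array weights it was 1 at 750 ppm (Ryr2) and 1 at 2500 ppm (Ryr3) against control, where it was otherwise 0. The cause was not tested. By unadjusted p, the counts of 6, 3 and 6 became 3 at 750 ppm against control and 3 between the doses with 1 probe set per gene, a rule that tests fewer probe sets. The count became 8 at 2500 ppm against control with array weights, and 2 at 750 ppm without those 2 arrays together. On leaving out single arrays the counts ranged from 4 to 6, from 1 to 6 and from 3 to 7. The 1 at 2500 ppm against control came without control replicate 1 or without 2500 ppm replicate 2, and the 6 without control replicate 2. The 3 between the doses came without 750 ppm replicate 1. The share of all probe sets called was counted for the main fit only. The member counts under the alternatives, adjusted or unadjusted, therefore have no background beside them.

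The labels do not say whether the replicate numbers pair the samples. Same-numbered deviations correlated at -0.209 to 0.312, which cannot decide this, since arrays of different numbers were not compared. The replicate block gave unadjusted counts of 6, 4 and 5, and Ryr2 between the doses an adjusted p of 0.0701.

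Differences that changed sign were small and not called in the report. With array weights they were -0.019 for Cacna1b 1370444_at, -0.064 for Cacna1c 1370451_a_at and 0.032 for Cacna1c 1370452_at at 750 ppm, and -0.058 for Cacna1b 1370444_at and 0.0069 for Cacna1c 1370452_at at 2500 ppm. Without those 2 arrays together they were -0.058 for Cacna1b 1370444_at, -0.061 and 0.047 for Cacna1c 1370451_a_at and 1370452_at and -0.16 for Itpr1 at 750 ppm, and 0.010 and 0.016 for Atp2b1 1370050_at and 1397224_at and -0.10 for Cacna1b 1370444_at at 2500 ppm. Between the doses, Cacna1c 1370452_at was at 0.010 with median-centring and 0.039 with a second quantile normalization. On leaving out single arrays, the 750 ppm differences ranged from -0.058 to 0.078 for Cacna1d 1370640_a_at, -0.056 to 0.19 for Cacna1b 1370444_at, -0.058 to 0.14 for Cacna1c 1370451_a_at and -0.011 to 0.33 for Itpr1 1387907_at. The 2500 ppm differences from control ranged from -0.090 to 0.0034 for Atp2b1 1386426_at, -0.049 to 0.01 for Atp2b1 1370050_at, -0.10 to 0.14 for Cacna1b 1370444_at and -0.075 to 0.016 for Atp2b1 1397224_at. Between the doses they ranged from -0.077 to 0.048 for Cacna1c 1370452_at, -0.060 to 0.025 for Cacna1a 1367821_a_at, -0.14 to 0.045 for Cacna1a 1386939_a_at and -0.16 to 0.011 for Ryr3 1398479_at. Of 1512 values of named probe sets under the alternatives, 1433 kept their sign and side of the threshold. Nearly all belong to differences that were not called in the report, and some alternatives left out an array outside the comparison. The count is therefore no measure of how stable the calls are. The 22 values that lost a call were all of Ryr2 between the doses or Cacng4 at 2500 ppm against control.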

Other observations

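The 3 member probe sets below the filter were not tested. Cacna1a on 1395062_at had group means of 5.93 (SD 0.48), 5.97 (SD 0.14) and 5.98 (SD 0.14) in controls, 750 ppm and 2500 ppm pups, and on 1367822_at means of 5.89, 5.84 and 5.82, with the same deposited value of 5.86 on 5 of the 9 arrays. Cacna1d on 1370637_at had means of 4.45, 4.45 and 4.60. The probe sets of 1 gene did not always vary together over the 9 arrays. The correlation was 0.658 between both probe sets of Ryr2, -0.301 for Cacna1b, -0.512 for Cacna1c and -0.083 for the tested Cacna1d probe sets, as a description with no test.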
